A study of Mus musculus with 10 samples.

Results

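The 38 genes described here encode regulators of pre-messenger RNA splicing, and their transcripts were compared between wildtype and Abcc5 knockout mouse brains. They were taken from the protein-coding genes of the deposited table. A name pattern brought in 12 serine/arginine-rich (SR) genes, named Srsf or, in the older spelling, Sfrs, and 18 heterogeneous nuclear ribonucleoprotein (hnRNP) genes, named Hnrnp. The other 8 were listed one by one: Cirbp, Rbm3, Tra2a, Tra2b and Clk1 to Clk4. The whole table held 25050 genes. The count filter passed 14526 of them, all 38 included, and each of the 38 had at least 48 counts in every library. The 8 listed genes were chosen by their level and fold change between knockout and wildtype in these same libraries, which were already known, so their values are given as a description, with no test. The SR and hnRNP genes came in by name only, and the test across all genes is given for them, although these families too were proposed with earlier results in view.

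The libraries came from whole brains of FVB/NJ mice, 5 labelled wildtype (Abcc5+/+) and 5 labelled knockout (Abcc5-/-), and are named by group and replicate. Abcc5 encodes an ATP-binding cassette transporter of organic anions. All animals were killed with CO2 and untreated as far as the labels say, and age and sex are not given in the sources used here. Nothing in the labels names litters or dissection days, so each p-value measures only the spread between these libraries. The Abcc5 transcript had 311.1 ± 12.6 CPM (read counts over the genes tested, scaled by depth and TMM factor) in wildtype brains and 218.8 ± 5.95 CPM in knockouts (SD, n = 5 each). Its log2 fold change was -0.51 (SE 0.041), and edgeR gave an adjusted p of 6.35e-06.

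Messenger RNA precursors are spliced by the spliceosome, and SR and hnRNP proteins decide which exons it joins. SR proteins bind exons and mostly favour their inclusion, whereas many hnRNP proteins favour skipping. Tra2 proteins are relatives of the SR proteins that act with them on exonic enhancers, and the Clk kinases phosphorylate the serine/arginine-rich domains and release SR proteins from nuclear speckles. Cirbp and Rbm3 are small RNA-binding proteins that mammalian cells make more of under mild cold. Many of these genes limit their own output by splicing in an exon with a stop codon, which sends the transcript to nonsense-mediated decay.

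Total counts ran from 7731294 to 23588335 per library, with 3 deeper libraries (wildtype replicate 1 and knockout replicates 2 and 4, at least 19795743) and 7 shallower ones (at most 11479995). Knockout replicate 3 stood apart: the summed level of 14 cerebellum markers was 365.7 CPM there and 1587 to 1814 CPM in the other 9 libraries. Among the 5 knockout libraries it was the highest for 8 of the 38 genes, the lowest for 10 and inside the range for 20. Together the 38 genes took 0.576 ± 0.00486% of all counts in wildtype and 0.547 ± 0.0138% in knockout libraries, a sum that includes the 8 genes chosen on these values.

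Cirbp was the one listed gene with a higher mean in knockout brains. The gene (ENSMUSG00000045193) lies on chromosome 10 from 79628730 to 79635531. Gene positions are those of the deposited table, and its build is not given in the sources used here. Its level in wildtype replicates 1 to 5 was 62.9, 58.6, 54.8, 49.99 and 55.3 CPM, and in knockout replicates 1 to 5 it was 80.5, 76.9, 78.9, 84.4 and 85.2 CPM. Every knockout library lay above every wildtype library. The means were 56.3 ± 4.79 and 81.2 ± 3.58 CPM (SD, n = 5 each), 44.1% higher in knockout, with a log2 fold change of 0.52 (SE 0.059). Among the 3 deeper libraries, where replicate 1 is the only wildtype one, the log2 difference was 0.36, and among the 7 shallower ones 0.58. Without knockout replicate 3 the fitted log2 fold change was 0.53. Over all 14526 genes the groups did not overlap in the higher direction for 1.54%, a share given as background only, since Cirbp was picked for this difference.

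Rbm3 (ENSMUSG00000031167), which encodes the closest relative of Cirbp and is the other classical cold-inducible RNA-binding protein, had overlapping groups. The wildtype libraries had 64.6, 63.9, 64.1, 61.0 and 69.4 CPM, and the knockout libraries had 57.6, 55.0, 60.6, 64.6 and 69.8 CPM. Knockout replicate 5 held the highest value of all 10 and knockout replicate 2 the lowest. The means were 64.6 ± 3.04 and 61.5 ± 5.86 CPM, with a log2 fold change of -0.07 (SE 0.062). The ratio of Cirbp to Rbm3 counts within a library, which needs no scaling between libraries, was 0.797 to 0.973 in wildtype and 1.22 to 1.40 in knockout brains. The Rbm3 locus overlaps 2900002K06Rik in the annotation, and whether reads were counted by strand is not given in the sources used here.

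The promoter of Cirbp is shown because the 2 cold-inducible genes differed in their values, and a cold-response octamer, TCCCCGCC, has been described upstream of Cirbp. The 250 bases before the start of Cirbp in RefSeq (the first of 2 windows, build GRCm38.p6, chr10:80167589-80167838, plus strand) hold that octamer, in capitals, with its first base at -247 from the start.
Cirbp: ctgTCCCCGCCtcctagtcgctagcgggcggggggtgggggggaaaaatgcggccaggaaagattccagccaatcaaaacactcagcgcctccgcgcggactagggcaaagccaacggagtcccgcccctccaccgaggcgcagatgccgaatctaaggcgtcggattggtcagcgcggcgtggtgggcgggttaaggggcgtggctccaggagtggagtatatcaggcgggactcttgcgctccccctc
On either strand the octamer is also in the 300-base windows (250 bases before the start to 50 after it) of Hnrnpa0, Hnrnpf and Srsf7, so 4 of the 47 windows of the 34 matched genes hold it, against 5.38% of 32851 windows of all genes. Hnrnpf had 30.9 ± 1.89 CPM in wildtype brains and 29.9 ± 3.49 CPM in knockouts, and Srsf7 had 106.1 ± 4.72 and 99.9 ± 5.08 CPM. A match is a string of letters and says nothing of binding. Clk1, Hnrnpul2, Rbm3 and Sfrs18 had no matched window.

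**Figure D1:**
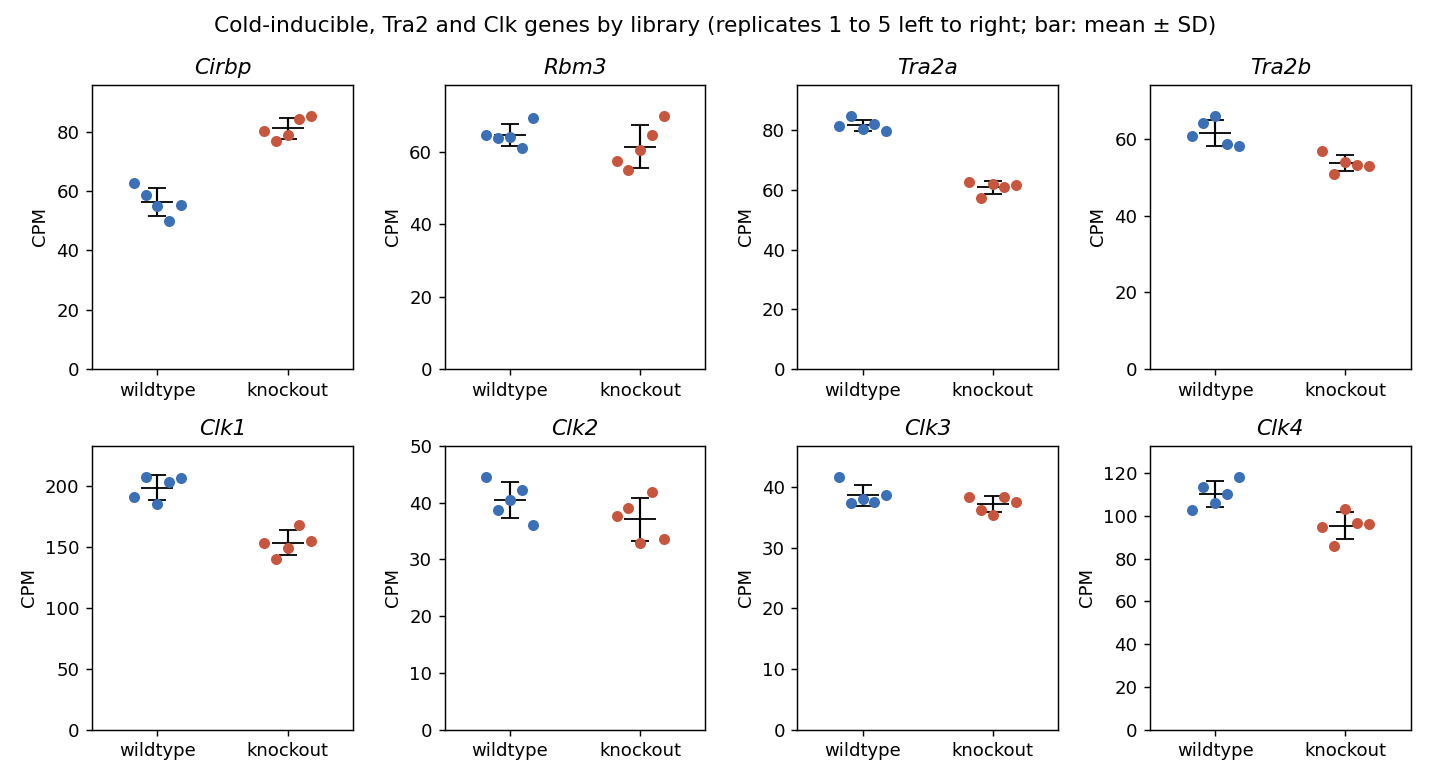
Level of each of the 8 listed genes in CPM (y axis, from 0) in the 5 wildtype and 5 knockout libraries (x axis), with replicates 1 to 5 from left to right and bars for the mean ± SD. Cirbp is higher in all 5 knockout libraries, Tra2a, Tra2b and Clk1 are lower in all 5, and the groups overlap for Rbm3, Clk2, Clk3 and Clk4.

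Both Tra2 genes had lower levels in every knockout library than in any wildtype library. Tra2a (ENSMUSG00000029817, chromosome 6, 49193920 to 49214051) had 81.6, 84.7, 80.4, 82.1 and 79.7 CPM in wildtype replicates 1 to 5 and 62.8, 57.2, 62.1, 61.1 and 61.5 CPM in knockout replicates 1 to 5. No wildtype library was below 79.7 CPM and no knockout library was above 62.8 CPM. The means were 81.7 ± 1.93 and 60.9 ± 2.18 CPM (SD, n = 5 each) (a change of -25.4% from wildtype), with a log2 fold change of -0.43 (SE 0.042). Deeper libraries alone, with replicate 1 as the only wildtype one, gave a log2 difference of -0.46 and shallower ones -0.39. Over all genes tested, 2.64% had groups that did not overlap in the lower direction, again only as background for genes picked for their difference.

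Tra2b (ENSMUSG00000022858), whose protein shares the Tra2 targets and regulates its own transcript through a poison exon, had a smaller difference than Tra2a. Wildtype libraries had 60.8, 64.1, 65.9, 58.7 and 58.2 CPM, and knockout libraries had 56.9, 51.0, 54.1, 53.3 and 53.1 CPM. Wildtype replicate 5 and knockout replicate 1 lay closest to each other. The means were 61.6 ± 3.38 and 53.7 ± 2.11 CPM, with a log2 fold change of -0.20 (SE 0.050). Tra2a made up 57.0 ± 1.29% of the summed Tra2a and Tra2b counts in wildtype and 53.2 ± 0.496% in knockout brains, with ranges of 54.9 to 58.3% and 52.5 to 53.7%. Tra2b lies on chromosome 16 (22244622 to 22266078), 1.82 Mb from Abcc5 itself. The genes tested within 10 Mb of Abcc5, without Abcc5 but with Tra2b, numbered 158. Of these, 2 (1.27%) passed an edgeR adjusted p of 0.05, against 1.18% of all genes tested. A difference that comes from DNA carried along with the targeted locus and one that comes from the loss of Abcc5 cannot be told apart for this gene.

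The Clk kinases, which phosphorylate SR proteins, also had lower means in knockout brains, by unequal amounts. Clk1 (ENSMUSG00000026034, chromosome 1, 58467033 to 58480910) had 191.4, 207.5, 185.8, 203.4 and 207.2 CPM in wildtype and 153.8, 140.5, 149.7, 168.6 and 155.2 CPM in knockout replicates 1 to 5. The groups did not overlap, and the gap between them ran from 168.6 to 185.8 CPM. The means were 199.1 ± 9.90 and 153.6 ± 10.2 CPM, with a log2 fold change of -0.37 (SE 0.053). The log2 difference was -0.31 among the deeper libraries, with replicate 1 as the only wildtype one, and -0.39 among the shallower.

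Clk4, the closest relative of Clk1, had 102.5, 113.6, 106.1, 110.1 and 118.1 CPM in wildtype and 94.6, 85.7, 103.2, 96.8 and 96.3 CPM in knockout libraries. Knockout replicate 3 lay above wildtype replicate 1, so the groups overlapped, with means of 110.1 ± 6.11 and 95.3 ± 6.28 CPM and a log2 fold change of -0.21 (SE 0.054). Without knockout replicate 3 the fitted log2 fold change was -0.24. The Clk4 locus overlaps BC049762 and AL645907.1 in the annotation. Clk2 had 40.5 ± 3.20 and 37.1 ± 3.73 CPM (log2 fold change -0.12, SE 0.074). Clk3 had 38.7 ± 1.74 and 37.2 ± 1.34 CPM (log2 fold change -0.06, SE 0.052). Both had overlapping groups, and the Clk3 locus overlaps Edc3. Clk1 made up 50.2 to 52.2% of the summed Clk1 to Clk4 counts in wildtype and 46.6 to 48.8% in knockout libraries. The summed level of the 4 kinases was 388.3 ± 12.6 CPM in wildtype brains and 323.1 ± 15.7 CPM in knockouts, with ranges of 370.4 to 400.2 and 301.5 to 345.7 CPM.

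The promoters of Tra2a and Clk4 are shown because these genes had lower means in knockout brains, and theirs were the only windows among the 34 matched genes with the full cAMP response element TGACGTCA, in capitals, which reads the same on both strands. It is in 1.79% of all 32851 windows of 300 bases. The 250 bases before each start in RefSeq (GRCm38.p6) are chr6:49264053-49264302 on the minus strand for Tra2a, with the element at -27, and chr11:51262864-51263113 on the plus strand for Clk4, with the element at -65.
Tra2a: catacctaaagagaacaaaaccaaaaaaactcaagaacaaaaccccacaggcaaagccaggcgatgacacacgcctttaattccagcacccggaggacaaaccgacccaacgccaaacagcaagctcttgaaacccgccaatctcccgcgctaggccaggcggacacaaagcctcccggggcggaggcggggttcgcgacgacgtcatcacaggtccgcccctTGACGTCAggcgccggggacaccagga
Clk4: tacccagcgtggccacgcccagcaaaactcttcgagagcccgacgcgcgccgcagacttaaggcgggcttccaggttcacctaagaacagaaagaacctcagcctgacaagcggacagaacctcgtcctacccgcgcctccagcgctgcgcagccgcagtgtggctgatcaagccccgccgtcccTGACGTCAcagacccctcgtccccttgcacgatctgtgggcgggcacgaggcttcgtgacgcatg
The core of a heat shock element, GAANNTTC, was searched on both strands in the same windows and is in 7.86% of all of them and in 6 of the 47 windows of the matched genes. These 6 belong to Tra2b, Hnrnpa2b1, Hnrnpf, Hnrnpl and Srsf9. No factor's binding was measured in these libraries.

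None of the 12 SR genes passed an edgeR adjusted p of 0.05, against 1.18% of all 14526 genes tested. At an unadjusted edgeR p under 0.05, 4 were lower and 0 higher in knockout, against 8.03% and 6.74% of all genes (14.8% either way). DESeq2 called 1 of them (Srsf3, lower, adjusted p 0.0495) and limma-voom called 0. The log2 fold change was negative for 9 of the 12 and positive for 3, with a median of -0.09, where all genes tested had a median of 0.0042 and 48.4% were negative. No SR gene had groups without overlap, where 4.19% of all genes tested had such groups in either direction. The summed level of the SR genes was 1761 ± 24.7 CPM in wildtype brains and 1711 ± 56.2 CPM in knockouts, with overlapping ranges.

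Srsf3, the smallest SR protein, which also acts in messenger RNA export, had the smallest p of the family. Its wildtype libraries had 114.5, 115.6, 118.2, 111.2 and 120.6 CPM, and its knockout libraries had 112.2, 96.3, 102.5, 103.0 and 101.9 CPM. Knockout replicate 1 alone reached the wildtype range. The means were 116.0 ± 3.58 and 103.2 ± 5.73 CPM, the log2 fold change was -0.17 (SE 0.046), and the edgeR adjusted p was 0.0921. Srsf10, a splicing repressor when dephosphorylated, had 80.7 ± 3.43 and 73.5 ± 4.06 CPM (edgeR adjusted p 0.212). Srsf2, a classical exon enhancer protein, had 42.5 ± 2.83 and 38.4 ± 2.40 CPM (edgeR adjusted p 0.312), and its locus overlaps Mfsd11 and 1110005A03Rik.

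The SR genes with positive log2 fold changes had small ones. Srsf4 had 19.9 ± 1.32 and 21.6 ± 1.41 CPM (log2 fold change 0.11, edgeR adjusted p 0.482), Srsf12 had a log2 fold change of 0.06 and Srsf11 one of 0.04. The highest in CPM were Sfrs18 and Srsf5. Sfrs18 came in by the older Sfrs spelling only, and the GENCODE M21 annotation names it Pnisr. Per kilobase of annotated exon the order was reversed, with 39.3 CPM for Sfrs18 and 82.1 CPM for Srsf5 in wildtype brains. Sfrs18 had 400.4 ± 15.3 CPM in wildtype brains and 398.7 ± 19.6 CPM in knockouts (log2 fold change -0.0057, SE 0.044). Srsf5 had 327.6 ± 17.0 and 325.5 ± 19.4 CPM (log2 fold change -0.01, SE 0.050). Srsf1, the founding member of the family, had 219.9 ± 6.82 and 205.7 ± 8.86 CPM, with an edgeR adjusted p of 0.315.

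Of the 18 hnRNP genes, 2 fell in knockout brains by the edgeR test at an adjusted p of 0.05 and 0 rose, against 0.964% and 0.213% of all genes tested. At an unadjusted edgeR p under 0.05 the counts were 4 lower and 2 higher, where all genes had 8.03% lower and 6.74% higher. The 2 that fell were Hnrnph1 and Hnrnpa2b1, and both were called by limma-voom and by DESeq2, which also called Hnrnpa0 as higher. The log2 fold changes were negative for 13 of the 18, against 48.4% of all genes tested, with a median of -0.03. In the 7 shallower libraries alone this median was 0.0050.

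Hnrnph1 (ENSMUSG00000007850, chromosome 11, 50190492 to 50200030) encodes hnRNP H, which binds runs of G and can silence or enhance an exon depending on where it binds. Its level was 358.3, 361.9, 351.3, 354.5 and 359.5 CPM in wildtype replicates 1 to 5 and 307.6, 291.7, 293.9, 314.2 and 310.6 CPM in knockout replicates 1 to 5. Every knockout library was below every wildtype library, and the wildtype coefficient of variation, 1.17%, was the lowest of the 38 genes. The means were 357.1 ± 4.19 and 303.6 ± 10.1 CPM, the log2 fold change was -0.23 (SE 0.037), and the edgeR adjusted p was 0.00452. It was -0.22 without knockout replicate 3 (edgeR adjusted p 0.00274), and -0.23 among the 7 shallower libraries, where the edgeR adjusted p was 0.0543. Its near paralog Hnrnph2 had 114.7 ± 3.39 and 112.9 ± 6.24 CPM. Hnrnph1 made up 75.7 ± 0.424% of the summed counts of this pair in wildtype and 72.9 ± 1.53% in knockout brains. How reads shared by such paralogs were assigned is not given in the sources used here.

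Hnrnpa2b1 (ENSMUSG00000004980, chromosome 6, 51410433 to 51419893) encodes hnRNP A2/B1, which takes part in splicing and in the transport of messenger RNA along neurites. Wildtype libraries had 584.5, 582.8, 568.2, 587.1 and 593.5 CPM, and knockout libraries had 534.8, 499.7, 509.3, 521.3 and 532.4 CPM. The groups did not overlap. The means were 583.2 ± 9.33 and 519.5 ± 14.98 CPM, the log2 fold change was -0.17 (SE 0.036), and the edgeR adjusted p was 0.0343. The call depended on which library was left out, while the log2 fold change stayed at -0.18 to -0.15. The call was lost without wildtype replicate 2, 3, 4 or 5 (edgeR adjusted p 0.0847, 0.0659, 0.106 and 0.102). It was also lost without knockout replicate 1, 2 or 4 (edgeR adjusted p 0.0583, 0.103 and 0.0801). In these fits 76 to 112 of all genes were called, against 171 in the main fit. The call of Hnrnpa2b1 held without wildtype replicate 1, knockout replicate 3 (edgeR adjusted p 0.0261) or knockout replicate 5.

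**Figure D2:**
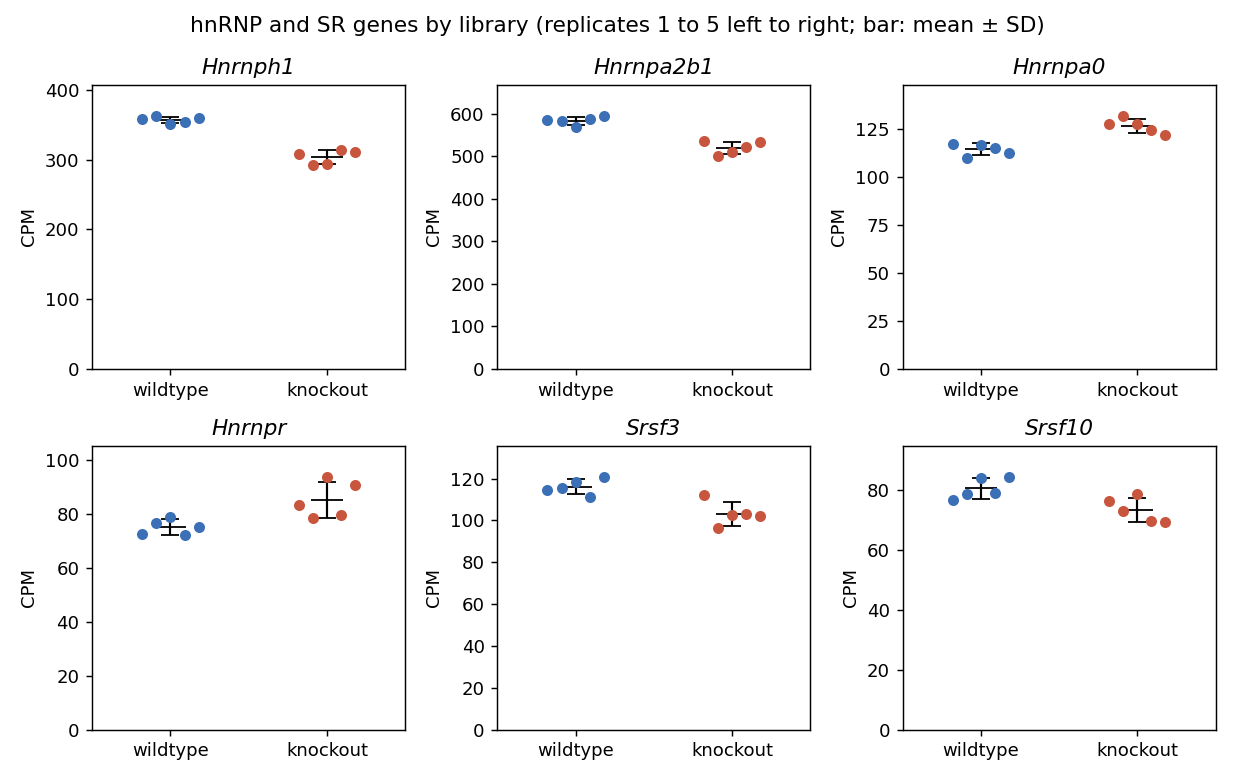
Level in CPM (y axis, from 0) of 4 hnRNP and 2 SR genes in the 5 wildtype and 5 knockout libraries (x axis), with replicates 1 to 5 from left to right and bars for the mean ± SD. Hnrnph1 and Hnrnpa2b1 are lower and Hnrnpa0 is higher in every knockout library, while the groups overlap for Hnrnpr, Srsf3 and Srsf10.

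On the other side, Hnrnpa0, a gene without introns in its coding part whose protein binds AU-rich elements, had 117.6, 110.1, 117.1, 115.2 and 112.8 CPM in wildtype and 127.7, 131.8, 127.8, 124.7 and 122.2 CPM in knockout libraries. All knockout values lay above all wildtype values. For a log2 fold change of 0.15 (SE 0.040) edgeR gave an adjusted p of 0.0937, and the DESeq2 adjusted p was 0.0454. Hnrnpr, which encodes a partner of the survival motor neuron protein SMN, had 72.4, 76.8, 78.8, 72.2 and 75.3 CPM in wildtype and 83.1, 78.6, 93.5, 79.6 and 90.7 CPM in knockout libraries. Knockout replicate 2 lay just inside the wildtype range, and the edgeR adjusted p was 0.149 for a log2 fold change of 0.18 (SE 0.055). Without knockout replicate 3, its highest library, the log2 fold change was 0.14. Hnrnpul1 had 95.4 ± 5.61 and 99.9 ± 5.01 CPM, with an edgeR adjusted p of 0.561.

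The summed hnRNP level was 3345 ± 24.8 CPM in wildtype brains and 3205 ± 56.0 CPM in knockouts, and the ranges did not overlap (3322 to 3386 and 3146 to 3285 CPM). Without Hnrnph1 and Hnrnpa2b1 it was 2404 ± 24.4 and 2382 ± 41.3 CPM, and the ranges overlapped. Both were left out because they were called lower in these same libraries, so a smaller difference followed from the choice. Hnrnpu, which encodes the nuclear scaffold attachment factor A, had 523.0 ± 32.4 and 515.6 ± 13.7 CPM (edgeR adjusted p 0.884). Hnrnpul2 had 309.3 ± 7.39 and 290.6 ± 10.5 CPM (edgeR adjusted p 0.298). Hnrnpk, a poly(C)-binding protein, had 316.6 ± 17.1 and 317.4 ± 16.1 CPM. Hnrnpa1, the textbook antagonist of Srsf1 at splice sites, had 56.0 ± 6.78 and 55.5 ± 3.38 CPM, and its wildtype coefficient of variation of 12.1% was the highest of the 38 genes. Its level is uncertain where reads could be split with its many pseudogene copies.

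**Figure D3:**
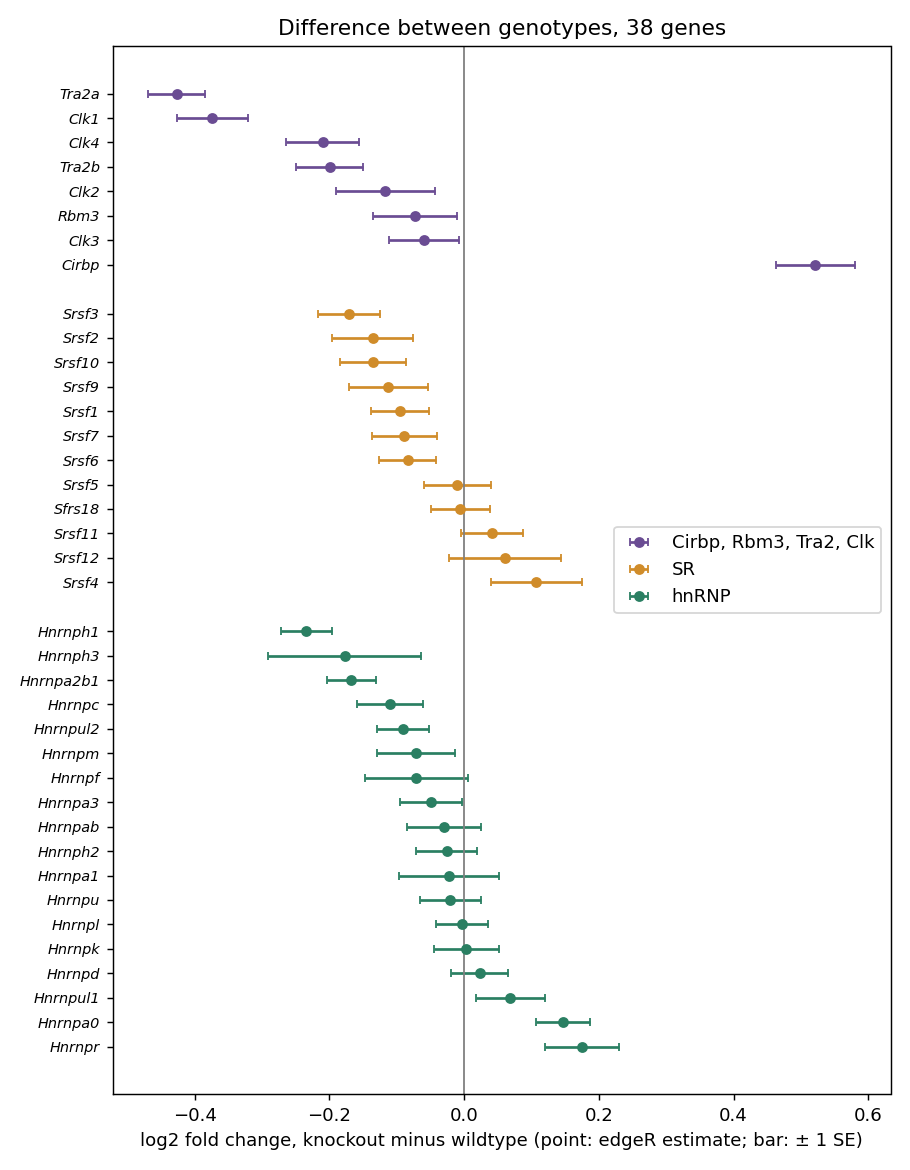
Log2 fold change of knockout against wildtype (x axis) for each of the 38 genes (y axis), fitted by edgeR, with bars of 1 SE either way and colours for the listed, SR and hnRNP genes. Cirbp stands at 0.52, Tra2a at -0.43 and Clk1 at -0.37, and no SR or hnRNP gene lies outside -0.23 to 0.18.

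Levels of different genes can be compared only per length, here as CPM per kilobase of annotated exon (GENCODE M21). In wildtype brains the order began with Hnrnpa2b1 at 88.6, Srsf5 at 82.1, Hnrnph1 at 61.1, Hnrnpk at 49.0 and Hnrnpu at 45.1 CPM per kilobase. It ended with Clk3 at 4.58, Hnrnpr at 3.38 and Hnrnph3 at 2.89 CPM per kilobase. Clk1 went from 24.5 in wildtype to 18.9 CPM per kilobase in knockout brains and Cirbp from 21.6 to 31.2. The order of these 2 genes depends on the exon lengths used, 8.13 and 2.60 kilobases, and both were picked for their difference. Tra2a went from 11.8 to 8.78 CPM per kilobase and Tra2b from 6.66 to 5.81.

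**Figure D4:**
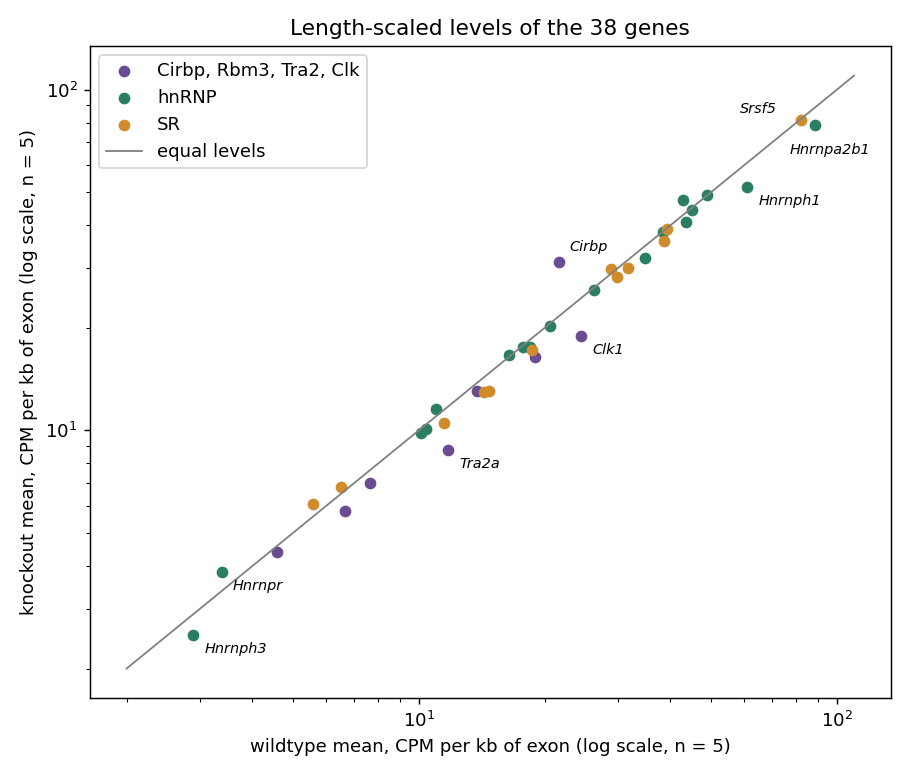
Mean level of each of the 38 genes in wildtype (x axis) and knockout brains (y axis), in CPM per kilobase of annotated exon, both on log scales, with a line of equal levels and 5 libraries per group. Most genes lie along the line, Cirbp lies above it, and Clk1, Tra2a and Hnrnph1 lie below it.

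Annotated transcript types were not used in choosing the 38 genes. In the GENCODE M21 annotation 26 of them (68.4%) have at least 1 transcript marked for nonsense-mediated decay, against 27.8% of 13645 tested protein-coding genes. This covers 8 of 8 listed genes, 10 of 12 SR genes and 8 of 18 hnRNP genes. Hnrnph1 has 0 such transcripts among 18, and Hnrnpa2b1 has 2 among 13. A transcript with a retained intron is annotated for 73.7% of the 38 genes and for 57.7% of the tested protein-coding genes. The 38 genes also have more annotated transcripts, with a median of 9 against 5. The deposited counts are 1 number per gene and library, so productive transcripts and those bound for decay are summed in every level given here.

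The nearest functional neighbours of these genes were examined as lists, none of which shares a gene with the 38. Of 50 tested splicing regulators of other families, edgeR called 1 lower and 0 higher, against 0.964% and 0.213% of all genes tested. DESeq2 and limma-voom each called 2 lower, adding Srrm4 (log2 fold change -0.30, edgeR adjusted p 0.0522), a regulator of neuronal microexons. The edgeR call was Rbm6, an RNA-binding splicing regulator, with 74.1 ± 2.57 CPM in wildtype brains and 62.5 ± 3.27 CPM in knockouts (log2 fold change -0.25, edgeR adjusted p 0.0161). That call was lost without wildtype replicate 4 (0.0667) and without knockout replicate 2 or 4 (0.0550 and 0.0515). Of 11 kinases and importins that phosphorylate or carry SR proteins, edgeR, DESeq2 and limma-voom each called 0, and 1 had an unadjusted edgeR p under 0.05. Among all genes tested, 14.8% had such a p. The log2 fold changes were negative for 9 of the 11 kinases and importins, against 48.4% of all genes, with a median of -0.08. The 2 with the smallest p were Prpf4b (log2 fold change -0.16, edgeR adjusted p 0.119) and Dyrk2 (log2 fold change -0.23, edgeR adjusted p 0.339). Without knockout replicate 3, Dyrk2 was called (log2 fold change -0.33, edgeR adjusted p 0.0448).

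Of 50 core spliceosome genes 1 rose and 0 fell by the edgeR test, against 0.213% and 0.964% of all genes tested. At an unadjusted edgeR p under 0.05 there were 4 in each direction, where all genes had 6.74% higher and 8.03% lower. The median log2 fold change was 0.02. The one that rose was Sf3b5, a small subunit of the SF3b complex, from 13.0 ± 1.01 to 16.7 ± 1.12 CPM (edgeR adjusted p 0.0338). Its adjusted p was 0.0655 to 0.111 when any of wildtype replicates 2 to 5 or knockout replicates 1, 2 and 4 was left out. Of 18 genes of the exon junction complex and nonsense-mediated decay edgeR called 0, and DESeq2 and limma-voom each called 1. At an unadjusted edgeR p under 0.05, 2 were higher and 1 lower, against the same 6.74% and 8.03% of all genes. Sap18, an accessory subunit of the junction complex, differed by 0.13 on the log2 scale (edgeR adjusted p 0.285).

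Of 7 tested cold-shock domain genes, the family of Csda, edgeR, DESeq2 and limma-voom each called 0. An unadjusted edgeR p under 0.05 was found for 1 of them, against 14.8% of all genes tested. Csda, the first by p, had 26.9 ± 2.05 CPM in wildtype brains and 22.5 ± 2.62 CPM in knockouts (edgeR adjusted p 0.177), and Csdc2 differed by -0.10 on the log2 scale (edgeR adjusted p 0.478). Heat shock genes, induced by warmth and by protein damage, had lower means in knockout brains. Of 18 tested, 5 fell by the edgeR test and 0 rose, against 0.964% and 0.213% of all genes tested. The log2 fold change was negative for 18 of 18, against 48.4% of all genes, with a median of -0.20. The 5 were Dnajb1 (log2 fold change -0.38, edgeR adjusted p 0.00247), Hspa1b (-0.74, 0.00968), Hsph1 (-0.31, 0.0161), Chordc1 (-0.32, 0.0303) and Hspa8 (-0.22, 0.0338), all chaperones or their partners. The summed level of all 18 heat shock genes was 4007 to 4287 CPM in wildtype and 3583 to 3829 CPM in knockout libraries. In the 7 shallower libraries alone 0 of the 18 were called. With 1 library left out, the adjusted p of Hsph1 was 0.0553 to 0.0667 without wildtype replicate 3, 4 or 5. That of Chordc1 was 0.0584 to 0.0955 without any of wildtype replicates 2 to 5 or knockout replicates 2, 4 and 5, and that of Hspa8 was 0.0558 to 0.112 without any of wildtype replicates 3 to 5 or knockout replicates 1, 2 and 4.

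Markers of the cell types in a whole brain were examined beside these values. In bulk tissue, fewer cells of a type and less RNA per cell cannot be told apart. By edgeR, DESeq2 and limma-voom 0 of 11 neuron, 8 astrocyte, 8 oligodendrocyte and 14 cerebellum markers were called. Their only unadjusted edgeR p under 0.05 was that of 1 neuron marker, lower in knockout. For the cerebellum list this says little, since knockout replicate 3 (365.7 CPM summed) widens the spread. The SD of that sum was 622.5 CPM in knockouts and 32.8 CPM in wildtype brains. Over all genes tested edgeR called 0.213% higher and 0.964% lower, and 48.4% were negative. At an unadjusted edgeR p under 0.05 the shares were 6.74% and 8.03%. Microglia markers were higher: 9 of 9 had a positive log2 fold change and 2 (C1qb and C1qc, subunits of complement C1q) were called by edgeR, 2 by limma-voom and 4 by DESeq2, which added C1qa and Cx3cr1. The groups did not overlap for 4 of 9, all higher in knockout, against 1.54% of all genes tested. The summed level of the 9 was 185.4 to 207.0 CPM in wildtype and 221.3 to 266.5 CPM in knockout libraries. Markers of meninges and fibroblasts were negative in 7 of 7, with 0 called by edgeR, 3 at an unadjusted p under 0.05 and 2 by DESeq2, and summed to 195.2 to 222.4 CPM in wildtype and 148.2 to 201.7 CPM in knockout libraries. Of 7 blood markers 5 could be tested, all positive and 0 called, with 2 at an unadjusted p under 0.05, and they summed to 53.8 to 88.0 CPM and 70.8 to 103.0 CPM. The part of these shifts in the levels of the 38 genes was not tested. Without knockout replicate 3 the log2 fold changes of Cirbp, Tra2a, Tra2b, Clk1, Hnrnph1 and Hnrnpa2b1 were 0.53, -0.43, -0.20, -0.36, -0.22 and -0.16.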

How the data were processed

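Polyadenylated RNA of 10 whole brains was sequenced (TruSeq v2, per the labels' protocols). The authors deposited read counts per Ensembl gene and library. The submitters' processing notes name TopHat2 2.0.6, HTSeq, edgeR and limma, and their roles and the genome build are not given in the sources used here. The authors also deposited a log2 fold change, in which 629 cells had lost their decimal point, and an adjusted p-value, in which 8 cells were damaged. For the 38 genes no cell was damaged, and the signs equal those computed here in 38 of 38. A further 10 columns of values per library were not used here.

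The counts were fitted by edgeR 4.0.16 (R 4.3.3): filterByExpr (minimum count 10, minimum total 15), TMM factors (0.982 to 1.01), a quasi-likelihood fit with genotype as its only term, and Benjamini-Hochberg adjustment over 14526 genes, with 0.05 as the threshold. CPM are scaled by TMM over the genes tested, with a prior count of 2 on the log2 scale. The SE was derived from the F statistic. The common biological coefficient of variation was 0.071, and the chi-square per degree of freedom between replicates was 1.29 to 12.8, above counting error. Exon lengths and transcript types came from GENCODE M21 and promoter windows from RefSeq (GRCm38.p6). The method was tested on simulated data.

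The members, the lists (220 of 222 genes matched, by symbol or else by Ensembl ID) and the tests were chosen with earlier results of these data known. Named were the 8 listed genes. Also named were, among SR and hnRNP genes, those called, the 3 smallest p in each direction and the 3 highest in mean CPM. Of each list the called genes were named, or else the 2 smallest p. A gene that this rule names is not reported here. Hnrnpf, Srsf7, Srsf1, Hnrnph2, Hnrnpk, Hnrnpa1, Srrm4, C1qa and Cx3cr1 were named after their values were seen. Alternatives were other scalings and filters, DESeq2 1.42.0, limma-voom (limma 3.58.1), each library left out in turn, a replicate block, and the 7 shallower libraries.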

Additional observations from a re-analysis of the deposited data

How the results depend on the processing

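The log2 fold changes of the 8 listed genes kept their sign and moved by less than 1 SD under all 18 alternatives, with ranges of 0.48 to 0.58 for Cirbp, -0.44 to -0.40 for Tra2a and -0.41 to -0.34 for Clk1. Hnrnph1 stayed called in 17 of 18. For hnRNP genes, 1 was called lower under upper-quartile scaling, without the low-count filter and with the replicate block, 0 in the 7 shallower libraries, and 1 to 2 with a library left out; Hnrnpa2b1 then had edgeR adjusted p-values of 0.0600, 0.0541, 0.111 and 0.198 under the first 4. DESeq2 called 1 hnRNP gene higher and 1 SR gene lower. In the shallower libraries the median log2 fold change was -0.05 for SR and 0.0050 for hnRNP genes.

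Near-zero values changed sign: Sfrs18 (0.011 under upper-quartile scaling, -0.032 to 0.0098 with a library left out), Srsf5 (0.0066 under upper-quartile scaling, 0.0081 in the shallower libraries, -0.040 to 0.020 with a library left out) and Hnrnpu (-0.050 to 0.0074 with a library left out). Over all genes, 31 were called higher and 140 lower. These counts became 8 and 82 with the replicate block, 5 and 26 in the shallower libraries and 50 and 209 by DESeq2, and ran from 8 to 93 and from 67 to 248 with a library left out, both highest without knockout replicate 3. In the related lists, 1 higher and 6 lower became 0 and 3 with the block, 0 and 0 in the shallower libraries and 1 and 10 by DESeq2, and ran from 0 to 2 and from 2 to 9 with a library left out. The shallower fit has fewer samples, and why any of these counts changed was not tested. Same-numbered libraries correlated at -0.138 to 0.0893 and 1 of 5 correlated best with its own number. No pairing by number showed in these values, but so few libraries cannot exclude one.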

Other observations

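2 hnRNP relatives carry an older spelling in the deposited table and so fall outside the name pattern. Hnrpdl, which encodes hnRNP D-like, had 202.3 ± 9.73 CPM in wildtype brains and 220.4 ± 11.6 CPM in knockouts (SD, n = 5 each; log2 fold change 0.12, SE 0.048, edgeR adjusted p 0.253). Hnrpll, which encodes hnRNP L-like, a regulator of alternative splicing in lymphocytes, had 59.3 ± 3.07 and 59.0 ± 2.77 CPM (log2 fold change -0.0081, edgeR adjusted p 0.969). Neither was called, and adding both would leave the count of called hnRNP genes as it is.

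Of the 30 SR and hnRNP genes, the authors' deposited table gives an adjusted p under 0.05 for 2. They were Hnrnph1, with a log2 fold change of -0.24 and an adjusted p of 0.00292 in that table, and Hnrnpa2b1, with -0.17 and 0.0156 in that table.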
